A study of Mus musculus with 10 samples.

Results

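Villus enterocytes were compared with the enterocyte progenitors of the crypt, over all 12393 genes that the arrays could name, with attention to metabolism, immunity and cell structure. The members are 4 of the 10 mouse arrays of the series, chosen by their titles: 2 titled ENT and 2 titled Ent-Pro. Both groups came from C57BL/6 mice and both lacked Atoh1, the transcription factor without which the intestine makes no secretory cells. So ENT is mature villus epithelium and Ent-Pro crypt epithelium, both Atoh1-null. The labels state neither the age of the mice nor how and when Atoh1 was deleted, and no time or treatment beyond that. Villus and crypt cells were released separately in EDTA and were not sorted. The other 6 arrays held sorted Lgr5-positive stem cells from mice carrying an Lgr5-eGFP-Cre allele (ISC), and crypts rich in secretory progenitors after deletion of Rbpj (Rbpj Sec-Pro) or treatment with dibenzazepine, a Notch inhibitor (DBZ Sec-Pro), with 2 arrays a group. They entered the model to help estimate the spread.

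Enterocytes are born from dividing progenitors in the crypt and move up the villus for the few days until they are shed. On the way they stop dividing and take up nutrient absorption, lipid packaging, defence against luminal microbes and the breakdown of foreign compounds. A progenitor spends its resources on making nucleotides, ribosomes and membranes, while a villus cell faces digested food, bile and bacteria.

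Whether both arrays of a group stem from different mice is not stated, so every p-value here reflects spread between arrays that could be technical replicates. Atoh1 itself gave log2 levels of 5.75 and 5.78 on the Ent-Pro arrays, against 4.97 and 5.18 on the ENT arrays. It was lower in ENT (limma adjusted p = 0.0059), and since no label says which part was deleted, its probe set may lie outside that part. The Rbpj Sec-Pro arrays stood apart from each other, and without either of them the model called 5220 genes between ENT and Ent-Pro, against 4792 with all arrays. Both arrays of each group correlated closely across genes (r = 0.992 for ENT and 0.995 for Ent-Pro), and ENT with Ent-Pro at r from 0.938 to 0.944, where genes are not independent replicates. Counts of markers are read against all genes tested, of which 18.5% rose and 20.2% fell in ENT (limma). As to the labelled cell types, 10 of 13 brush border enzyme genes rose in ENT, 35 of 36 cell cycle genes fell, and the epithelial adhesion gene Epcam read 14.05 to 14.13 on all 4 arrays. Stem cell markers also fell, 12 of 17 with 1 higher (median -1.57): they averaged 9.39 and 9.27 in the unsorted Ent-Pro crypts, 8.05 and 7.93 in ENT and 10.40 over the sorted ISC. Of 25 goblet, Paneth and enteroendocrine markers 1 rose (4%) and 3 fell (12%), both below the shares of all genes. The median log2 fold change of these markers was -0.40. With the 4 arrays alone 2 rose and 8 fell, where 2623 of all 12393 genes fell. They averaged 6.68 and 6.69 in Ent-Pro and 6.04 and 6.51 in ENT. On ENT replicate 1, 6 read over 1 log2 unit below replicate 2, with 1 the other way. Of 14 pancreatic acinar markers 4 rose (28.6%) and 1 fell (7.14%). The part of stem cells in the genes that fell was not tested. Of 27 stromal, endothelial and muscle markers 0 rose and 0 fell (limma), with 6 near background in both groups. The Y-linked genes Eif2s3y, Kdm5d and Uty were near background on all 4 arrays, while Xist, the transcript of the inactive X chromosome, read 13.38 and 13.50 in Ent-Pro and 11.92 and 11.91 in ENT (2.86-fold lower, adjusted p = 0.00026). The transcript of the locus Gt(ROSA)26Sor, a common insertion site for transgenes, was near background in Ent-Pro (4.00 and 3.81) and read 8.17 and 8.28 in ENT, at least 11.8-fold higher. It was near background in Rbpj Sec-Pro as well (3.67 and 3.71), and read 8.89 and 8.47 in ISC and 9.19 and 9.27 in DBZ Sec-Pro. Both genes were singled out after their values were seen. The part of these differences between preparations in the results was not tested.

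Of the 12393 genes, 4792 (38.7%) differed between ENT and Ent-Pro at an adjusted p of 0.05 (limma, Benjamini-Hochberg over all genes). In ENT 2291 genes (18.5%) were higher and 2501 (20.2%) lower, and for none of these calls did the arrays of both groups overlap. Over all genes tested, the arrays did not overlap for 37.2% with ENT higher and 34% with ENT lower. Every call fell among these, so a lack of overlap is no added support for a called gene, here or below. After centring arrays on their medians the same model called 2974 higher and 2128 lower, so the share of calls that were higher moved from 47.8% to 58.3% with a shift of the median log2 fold change over all genes from 0.02 to 0.15. Changes of at least 4-fold were made by 256 genes that rose and 193 that fell. ENT was the highest of the 5 groups for 1915 of the genes that rose (83.6%) and the lowest for 2111 of those that fell (84.4%). Ent-Pro was the lowest of all groups for 535 of those that rose (23.4%) and the highest for 832 of those that fell (33.3%). These genes were picked for a difference between ENT and Ent-Pro, which by itself raises such shares. The same shares over all genes were not counted. In the paragraphs that follow, each gene list is read against 18.5% higher, 20.2% lower and a median log2 fold change of 0.02 over all genes. List counts of 1 to 4 often moved by over 1.5 times when an array was left out. Since whole tissue fractions were hybridised, fewer cells of a type and less RNA per cell cannot be told apart.

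**Figure D1:**
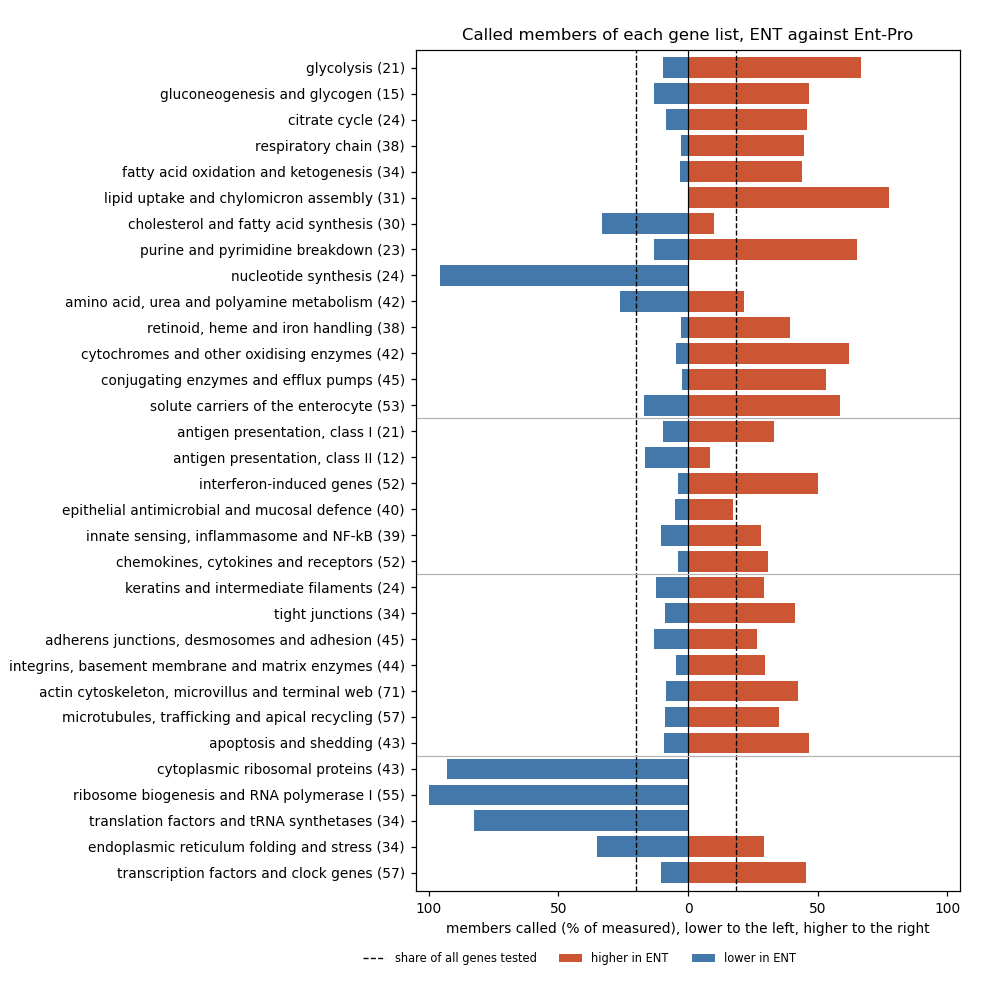
Share of the measured members of each gene list (number measured in brackets) called higher (to the right) or lower (to the left) in ENT than in Ent-Pro, as percent, with dashed lines at shares over all genes, 18.5% higher and 20.2% lower. Grey lines part metabolic, immune, structural and growth lists; lipid uptake and chylomicron assembly reaches 77.4% higher, and ribosome biogenesis is lower throughout.

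The 10 genes that rose most joined mineral transport, intermediary metabolism and defence. S100g, the calcium-binding protein that ferries calcium through the enterocyte, read 8.94 and 6.12 in Ent-Pro and 12.97 and 13.61 in ENT, a difference of 5.76 (SE 0.91, adjusted p = 0.0011, limma). Its Ent-Pro arrays lay far apart, and both lay below both ENT arrays. Fn1, which encodes the matrix protein fibronectin, read 6.00 and 5.65 against 11.32 and 11.34, 45.5-fold higher (adjusted p = 0.00036). Cd55, a membrane protein that shields cells from complement, read 7.41 and 6.76 against 12.09 and 12.21, a 33.4-fold difference (adjusted p = 1.9e-05). For both genes the ENT arrays nearly coincided, well above Ent-Pro. The others were Siglecf, a sialic acid receptor (31.7-fold), the iron exporter gene Slc40a1 (30.8-fold), Me1, the cytosolic malic enzyme that supplies NADPH (25.8-fold), the carbonic anhydrase gene Car2 (25.3-fold), the interferon-induced deconjugase gene Usp18 (25.1-fold), Mbl2, a lectin that starts the complement cascade (24.7-fold), and Iyd, an iodotyrosine deiodinase (24.2-fold).

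The 10 that fell most were led by Ceacam10, a cell adhesion molecule, which read 11.29 and 12.10 in Ent-Pro and 8.82 and 6.46 in ENT, a difference of -4.05 (SE 0.63, adjusted p = 0.001). The ENT arrays differed from each other by more than the Ent-Pro arrays did, without reaching them. Of the other 9, Hells, Pola1, Bub1, Smc2, Rif1, Ncapg2 and Mki67 serve DNA replication, chromosome structure or division and read 7.49- to 11.6-fold lower. Gsdme, a pore-forming protein of inflammatory cell death, read 8.57 and 8.40 against 5.02 and 6.00 (7.90-fold lower, adjusted p = 0.00012), and the last, Gm6958, has no role stated here.

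Genes of carbohydrate metabolism mostly rose. Of 21 glycolysis genes 14 rose and 2 fell (median log2 fold change 0.85), and of 15 genes of gluconeogenesis and glycogen 7 rose and 2 fell (median 0.41). Pck1, whose enzyme commits oxaloacetate to glucose synthesis, read 7.83 and 8.0 in Ent-Pro and 11.07 and 11.34 in ENT, 9.82-fold higher (adjusted p = 0.00017). Pcx, the mitochondrial pyruvate carboxylase that supplies that oxaloacetate, read 7.76 and 7.18 against 10.43 and 10.34, 7.54-fold higher (adjusted p = 4.4e-05). In both genes the ENT arrays lay close together and far above Ent-Pro. Pygl, the glycogen phosphorylase of liver, rose 17.2-fold (adjusted p = 0.0027), and Pdk4, the kinase that turns off pyruvate dehydrogenase, rose 10.3-fold (adjusted p = 0.0036). Khk, fructokinase, was 2.62-fold and Tkfc, the triose kinase of fructose breakdown, 2.58-fold higher. Hk2, the hexokinase typical of growing cells, went the other way: 9.42 and 9.90 in Ent-Pro and 7.90 and 7.37 in ENT, 4.07-fold lower (adjusted p = 0.00038). Pck2, the mitochondrial counterpart of Pck1, fell 2.32-fold. Fbp1 and Fbp2, which encode fructose bisphosphatases, were not called, at 1.11- and 1.24-fold higher.

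Of 24 citrate cycle genes 11 rose and 2 fell (median 0.34), and of 38 respiratory chain genes 17 rose and 1 fell (median 0.32). Me1 led the citrate cycle list. The respiratory list was led by Cox7a1, a subunit of cytochrome c oxidase, at 10.36 and 10.06 in Ent-Pro and 12.21 and 12.18 in ENT (3.96-fold, adjusted p = 0.00045). Ogdh, a subunit of oxoglutarate dehydrogenase, read 10.67 and 10.36 in Ent-Pro and 11.93 and 11.89 in ENT (2.63-fold, adjusted p = 0.00021), and Cs, citrate synthase, 13.20 and 13.16 against 14.01 and 14.02 (1.79-fold, adjusted p = 0.00074). Cycs, cytochrome c, rose 1.68-fold and Uqcrfs1, the iron-sulfur subunit of complex III, 1.65-fold. The one respiratory gene that fell was Ndufa4 (1.53-fold, adjusted p = 0.0041), and the NADP-linked mitochondrial Idh2 fell 2.10-fold while the cytosolic Idh1 rose 1.90-fold. These counts were fragile: without Ent-Pro replicate 1, Ent-Pro replicate 2, ENT replicate 1 or ENT replicate 2 the respiratory genes called higher were 6, 5, 8 and 8, and without the first 3 of these the citrate cycle genes called higher were 7, 6 and 7. After centring arrays, 26 respiratory genes were called higher.

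Most genes that take up and package fat rose, while those that make fat and cholesterol fell more often than they rose. Of 31 genes of lipid uptake and chylomicron assembly 24 rose and 0 fell (median 1.09). Scarb1, a receptor for lipoprotein cholesterol, read 6.30 and 5.61 in Ent-Pro and 9.07 and 9.54 in ENT, 10.2-fold higher (adjusted p = 4.9e-05). Apobec1, the enzyme that edits apolipoprotein B messenger RNA, rose 4.06-fold, and Abcg5, part of the pump that returns plant sterols to the lumen, 3.68-fold. Apoc2, the activator of lipoprotein lipase, read 12.21 and 11.59 against 13.81 and 14.24 (4.37-fold, adjusted p = 0.0042). In each of these genes both ENT arrays lay above both Ent-Pro arrays, and Apobec1 and Abcg5 showed almost no spread within a group. Fabp2, the fatty acid binding protein of the intestine, was not called and overlapped between groups (14.63 and 14.44 against 14.40 and 14.69). Without Ent-Pro replicate 2 the count of 24 dropped to 14, and without ENT replicate 2 to 15.

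Of 34 genes of fatty acid oxidation and ketogenesis 15 rose, 1 fell and 18 were not called (median 0.49). The list was led by a pair of peroxisomal enzymes. Ehhadh, the bifunctional enzyme of peroxisomal oxidation, read 9.51 and 9.34 against 11.70 and 11.87, 5.15-fold higher (adjusted p = 4.9e-05). Acaa1b, a peroxisomal thiolase, read 7.58 and 5.83 against 9.48 and 10.35 (9.27-fold, adjusted p = 0.001), and Acad11, an acyl-CoA dehydrogenase, rose 3.33-fold. Cpt1a, the gate of mitochondrial oxidation, was not called, at 1.27-fold higher. The count of 15 became 8 without Ent-Pro replicate 2 and 9 without ENT replicate 2.

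Of 30 genes of cholesterol and fatty acid synthesis 10 fell and 3 rose (median -0.34). Fasn, fatty acid synthase, read 9.60 and 9.51 in Ent-Pro and 8.38 and 7.76 in ENT, 2.80-fold lower (adjusted p = 0.0017). Idi1, which makes the isoprenoid building block, fell 2.54-fold, the elongase gene Elovl5 2.53-fold and Acly, which makes cytosolic acetyl-CoA, 2.15-fold. The 3 that rose were the sterol desaturase gene Sc5d (2.26-fold), the sterol reductase gene Tm7sf2 (1.89-fold) and the elongase gene Elovl6 (1.82-fold). Leaving out Ent-Pro replicate 2 left 6 genes of this list called lower.

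Nucleotide breakdown and nucleotide synthesis moved apart. Of 24 synthesis genes 23 fell and 0 rose (median -1.68), with only Impdh1 not called (1.11-fold lower). Gart, which carries several steps of purine synthesis, read 10.07 and 9.88 in Ent-Pro and 7.61 and 7.25 in ENT, 5.82-fold lower (adjusted p = 4e-05). Ppat, the first committed step of the same pathway, fell 5.07-fold, and Cad, which starts pyrimidine synthesis, 4.49-fold. Among enzymes of serine and folate metabolism on the list, Shmt2 fell by 5.26-fold and Phgdh by 4.99-fold. Of 23 genes of purine and pyrimidine breakdown 15 rose and 3 fell (median 1.05). Ada, adenosine deaminase, read 12.41 and 12.59 against 14.74 and 14.48, 4.32-fold higher (adjusted p = 0.00049). Gda, guanine deaminase, rose 6.15-fold, the cytidine deaminase gene Cda 5.05-fold, Upp1, uridine phosphorylase, 5.02-fold, and Xdh, which makes uric acid, 4.73-fold. Slc29a1, a nucleoside carrier of the cell surface, was among those that fell (2.14-fold).

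Amino acid, urea and polyamine genes went both ways, with 9 of 42 higher, 11 lower and a median of 0.01. Of the transaminase genes, Got1 rose by 3.96-fold (9.60 and 9.71 against 11.68 and 11.61, adjusted p = 0.00011), Gpt2 by 3.75-fold and Gpt by 2.82-fold, while Oat, ornithine aminotransferase, was lower in ENT (2.05-fold, adjusted p = 0.037). The call for Oat was lost without any 1 of the ISC, Ent-Pro or ENT arrays (adjusted p from 0.05 to 0.17). Srm, spermidine synthase, read 9.59 and 9.72 against 7.76 and 7.29 (4.38-fold lower, adjusted p = 7.3e-05), Asns, asparagine synthetase, fell 2.56-fold and Odc1, ornithine decarboxylase, 1.85-fold. Aldh18a1, of proline synthesis, was not called and overlapped between groups (1.02-fold). Cps1, the first enzyme of the urea cycle, was not called, at 13.73 and 13.62 against 12.97 and 12.90 (adjusted p = 0.13), and passed the threshold without either Rbpj Sec-Pro array (adjusted p = 0.00097). Without Ent-Pro replicate 1, Ent-Pro replicate 2 or ENT replicate 2, 7 of these genes were called lower.

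Iron and calcium genes gave some of the widest gaps. Of 38 genes of retinoid, heme and iron handling, among which S100g and Trpv6 were counted, 15 rose and 1 fell (median 0.50). Slc40a1, the only known cellular iron exporter, read 8.39 and 6.63 in Ent-Pro and 12.15 and 12.76 in ENT (adjusted p = 0.00015). Cybrd1, the ferric reductase of the brush border, read 5.32 and 5.32 against 8.16 and 8.94, 9.37-fold higher (adjusted p = 4.9e-05). Heph, the ferroxidase that works with the exporter, rose 2.43-fold. All 3 lay above Ent-Pro on both ENT arrays, while Slc11a2, the apical iron importer, was not called by its brightest probe set (1.15-fold higher), though it was by the mean of its probe sets (adjusted p = 0.0029). Tfrc, the transferrin receptor that takes iron from blood, was the one that fell: 12.78 and 13.53 against 10.52 and 11.07, 5.12-fold lower (adjusted p = 0.00098). Trpv6, the apical calcium channel, read 5.73 and 5.64 against 8.08 and 9.87 (9.76-fold, adjusted p = 0.00079). Rbp2, the retinol carrier of enterocytes, rose 3.98-fold and Adh4, an alcohol dehydrogenase that oxidises retinol, 4.61-fold.

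Many enzymes for foreign compounds rose. Of 42 cytochromes and other oxidising enzymes 26 rose and 2 fell (median 1.21), and of 45 conjugating enzymes and efflux pumps 24 rose and 1 fell (median 0.91). Cyp1a1, the classic target of the aryl hydrocarbon receptor, read 5.55 and 4.79 in Ent-Pro and 9.29 and 10.13 in ENT, 23.1-fold higher (adjusted p = 0.00051). Cyp2c55 read 7.21 and 6.00 against 10.80 and 10.27 (15.3-fold, adjusted p = 8.9e-05), and Cyp2c29, of the same family, rose 19.4-fold. Among conjugating enzymes Gsta4, a glutathione transferase for oxidised lipids, rose 7.30-fold, the transferase gene Gstt1 4.72-fold and Sult2b1, a sterol sulfotransferase, 4.22-fold. Gstp1, Gpx1 and Sod1, broad antioxidant genes, were not called, at 1.02- to 1.13-fold.

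Of 53 solute carrier, water channel and carbonic anhydrase genes 31 rose and 9 fell (median 1.02). The sulfate carrier gene Slc13a1 read 10.04 and 8.64 in Ent-Pro and 13.13 and 12.91 in ENT, 12.8-fold higher (adjusted p = 0.00098). Slc46a1, the folate carrier, rose 9.26-fold, Slc2a5, the fructose carrier, 6.45-fold, Slc2a2, the basolateral glucose carrier, 5.24-fold and Aqp7, a glycerol channel, 15.5-fold. Those that fell included Aqp4, a basolateral water channel that is also on the stem cell list (10.56 and 10.44 against 7.38 and 8.0, 7.02-fold lower, adjusted p = 0.0059). Slc12a2, the chloride loader of secreting crypt cells, read 13.43 and 13.38 against 11.28 and 11.52 (4.01-fold lower, adjusted p = 0.00018). Slc7a5, the large neutral amino acid carrier of growing cells, read 8.59 and 8.29 against 6.94 and 6.13 (3.74-fold lower, adjusted p = 0.00064). The carbonic anhydrases split, with Car2 and Car4 (7.76-fold) higher and Car12 lower (3.98-fold).

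**Figure D2:**
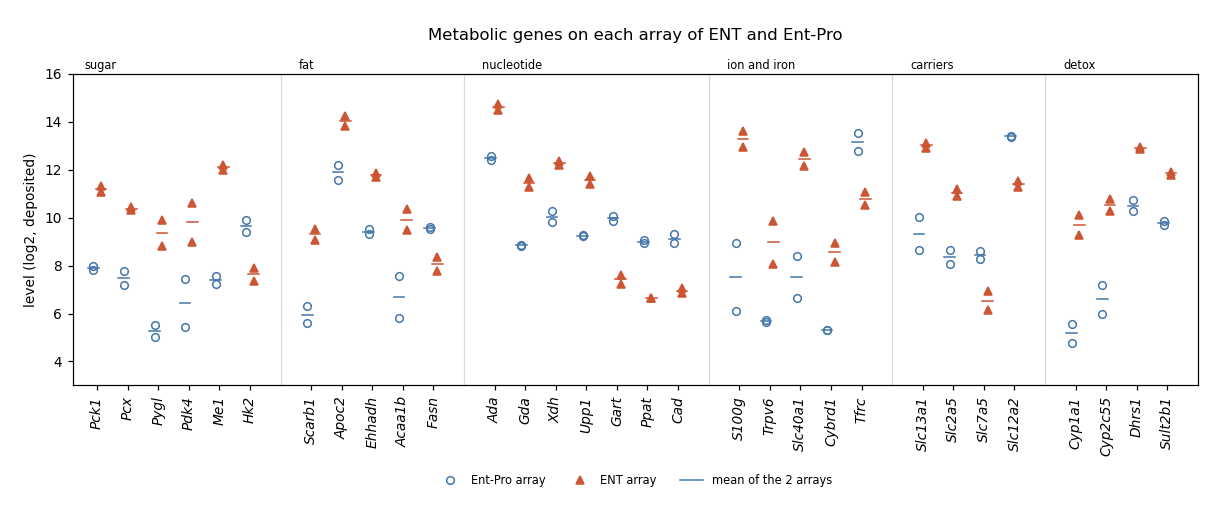
Deposited log2 level of metabolic genes on each of the 2 Ent-Pro arrays (open circles) and 2 ENT arrays (triangles), with a short line at each group's mean. Both ENT arrays lie on one side of both Ent-Pro arrays for every gene shown; the Ent-Pro arrays of S100g (8.94 and 6.12) and Pdk4 (7.43 and 5.45) lie apart.

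The Ent-Pro arrays were not alike in villus genes. Among the 256 genes at least 4-fold higher in ENT, Ent-Pro replicate 1 read above replicate 2 for 182 (71.1%), against 54.1% of all genes tested, and by over 1 log2 unit for 23, with 0 the other way. Brush border enzyme genes averaged 9.56 on Ent-Pro replicate 1 and 9.18 on replicate 2, and 10.57 and 10.73 on the ENT arrays. Oxidising enzymes averaged 8.79 and 8.33 against 9.69 and 9.70. Cell cycle genes averaged 10.20 and 10.10 against 8.21 and 8.22, and 24 of 36 (66.7%) read higher on Ent-Pro replicate 1 than on replicate 2. The part of this difference between the Ent-Pro arrays in the results was not tested.

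Immune genes divided by pathway. Of 52 interferon-induced genes 26 rose and 2 fell (median 0.80), a share higher of 50% against 18.5% of all genes. Without Ent-Pro replicate 2, 0 were called lower, and without Ent-Pro replicate 1, 3. Usp18, which trims the ubiquitin-like Isg15 and damps interferon signalling, read 5.83 and 6.43 in Ent-Pro and 10.60 and 10.96 in ENT (adjusted p = 4.9e-05). Zbp1, a sensor of foreign nucleic acid, read 6.61 and 7.19 against 9.79 and 9.71, 7.22-fold higher (adjusted p = 0.00097). The antiviral genes Oasl2 and Oasl1 rose 6.20- and 6.12-fold. Rsad2, an antiviral enzyme, read 6.49 and 6.66 against 8.30 and 9.85 (5.66-fold, adjusted p = 0.0036), and Ifit3, which binds viral RNA complexes, 5.12 and 5.14 against 6.86 and 7.77 (4.55-fold, adjusted p = 0.0013). In both, ENT replicate 2 read above ENT replicate 1. The list leaned the same way: 13 of 52 genes (25%) read higher on ENT replicate 1 than on replicate 2, against 53.3% of all genes. On Ent-Pro replicate 1, 12 of 52 (23.1%) read above replicate 2, against 54.1% of all genes. The part of these differences between arrays in the results was not tested. Of the factors that carry or amplify the type I signal, Irf7 rose 3.95-fold, Irf9 2.94-fold and Stat2 2.53-fold.

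Other interferon-induced genes, 24 of 52, were not called. A divide by type of interferon was not tested. Gbp2, a guanylate-binding protein, read 4.67 and 4.74 in Ent-Pro and 4.54 and 4.88 in ENT, and Igtp, an immunity-related GTPase, 8.04 and 9.20 against 8.36 and 8.95. Cxcl10, an interferon-induced chemokine, read 5.49 and 5.35 against 5.43 and 5.69. In all 3 the groups overlapped, and so they did for Gbp3, Gbp6, Gbp7, Irgm2, Cxcl9, Mx1, Bst2 and Ifit2. None of these was called (limma) with all arrays, and each was named after its values were seen. Ifit2 alone among them turned on 1 array, at 0.77 (log2) higher without ENT replicate 1 (adjusted p = 0.014) and -0.79 without ENT replicate 2 (0.013). Gbp2 and Cxcl9 (4.64 and 4.75 against 4.86 and 4.59) lay close to the bound for near background, so their lack of change says little. Irf1, 0.46 higher, was not called (adjusted p = 0.073, limma), but was after centring (0.037) or cyclic loess (0.044). Irgm1 (-0.56) was not called either (adjusted p = 0.075, limma), but was lower with a replicate block within the 4 arrays (0.039). The 2 genes of the list called lower were Irf8 (-0.88, adjusted p = 0.0078) and Trim21 (-0.55, 0.019). Trim21 was not called by the mean of its probe sets (0.095). Among the other groups, Usp18 was at 10.63 and 9.58 on the Rbpj Sec-Pro arrays and at 5.23 and 4.85 on the ISC arrays. Rsad2 was at 10.34 and 9.11 on the former and at 6.82 and 7.17 on the latter.

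Promoters of the list were then read for GAAANNGAA, the core of the interferon response element, on both strands of windows from 250 bases before to 50 after the start site (RefSeq, GRCm38.p6). The motif occurred in 22 of 41 interferon-induced genes with a window (53.7%), against 8.63% of all 9882 genes tested that had one. Among the called and the uncalled members its share was much alike, 11 of 21 that rose and 10 of 18 not called. Ifit3 and Rsad2, which rose, and Gbp2 and Cxcl10, which were not called, all carry the motif. Shown are the 250 bases before the start site of each gene. Each is written 5′ to 3′ on the strand of its gene, with the motif, in either orientation, in capitals.
Ifit3, chr19:34583279-34583528, plus strand: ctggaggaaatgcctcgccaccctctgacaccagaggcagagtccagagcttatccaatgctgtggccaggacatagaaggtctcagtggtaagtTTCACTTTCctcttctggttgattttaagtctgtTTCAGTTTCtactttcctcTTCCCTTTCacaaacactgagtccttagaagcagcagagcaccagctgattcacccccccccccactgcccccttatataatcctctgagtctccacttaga
Rsad2, chr12:26456453-26456702, minus strand: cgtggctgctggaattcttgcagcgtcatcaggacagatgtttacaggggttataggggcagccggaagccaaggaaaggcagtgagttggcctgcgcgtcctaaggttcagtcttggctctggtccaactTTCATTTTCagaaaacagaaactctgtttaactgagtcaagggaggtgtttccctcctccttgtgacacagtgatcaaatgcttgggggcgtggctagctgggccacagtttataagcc
Gbp2, chr3:142620413-142620662, plus strand: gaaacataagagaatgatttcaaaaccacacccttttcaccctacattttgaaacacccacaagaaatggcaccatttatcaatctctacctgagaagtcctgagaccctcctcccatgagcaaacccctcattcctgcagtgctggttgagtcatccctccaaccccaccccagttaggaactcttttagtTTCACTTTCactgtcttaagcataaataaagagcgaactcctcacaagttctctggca
Cxcl10, chr5:92348890-92349139, minus strand: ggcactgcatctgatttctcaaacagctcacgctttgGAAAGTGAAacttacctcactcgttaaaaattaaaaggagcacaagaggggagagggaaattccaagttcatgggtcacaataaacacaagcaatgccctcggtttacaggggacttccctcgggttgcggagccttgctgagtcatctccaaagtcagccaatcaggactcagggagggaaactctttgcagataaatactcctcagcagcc
Ifit3 held 3 matches in this stretch and the other genes 1 each. A match describes the letters and is neither a site nor a cause.

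Class II antigen presentation genes, which enterocytes use to show peptides to CD4 T cells, were split between the ENT arrays. H2-Aa, a class II chain, read 12.28 and 12.61 in Ent-Pro, 12.20 in ENT replicate 1 and 8.89 in ENT replicate 2. H2-Ab1 (11.30 and 8.69 in ENT), H2-Eb1 (10.93 and 8.53) and Cd74, the chaperone of class II chains (10.69 and 8.0), followed the same order. So 1 ENT array sat near the Ent-Pro level and the other well below it, and none was called (adjusted p from 0.37 to 0.46, limma). The arrays of Rbpj Sec-Pro split likewise, with H2-Aa at 13.07 and 6.53. Of the 12 class II genes 1 rose, the protease gene Ctss (2.47-fold, adjusted p = 0.00079), and 2 fell, Ciita, the master regulator of class II genes (-1.08, adjusted p = 0.045), and the protease gene Ctse (-0.97, adjusted p = 0.039). Both calls were lost without either Ent-Pro array, ENT replicate 1 or either DBZ Sec-Pro array, and that of Ciita also without ENT replicate 2 or either ISC array. The mean of its probe sets put Ctse higher in ENT, by 1.72 (adjusted p = 0.0037). Ifi30, a reductase of the same compartment, read between 11.63 and 11.72 on all 4 arrays.

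Class I genes included 7 of 21 higher, 2 lower and a median of 0.01. H2-Q2 read 11.22 and 11.29 in Ent-Pro and 12.78 and 12.54 in ENT, 2.65-fold higher (adjusted p = 0.0004), and of the classical chain genes H2-D1 was called (1.64-fold higher, adjusted p = 0.032) and H2-K1 was not (1.29-fold higher). B2m, the light chain they share, was 1.62-fold higher (adjusted p = 0.012). The call for H2-D1 was lost without any 1 of the 4 arrays (adjusted p from 0.067 to 0.17), and that for B2m without Ent-Pro replicate 1 (0.081) or ENT replicate 2 (0.069). Tapbp and Tapbpl, which load and edit peptides, rose 1.65- and 1.60-fold. Without Ent-Pro replicate 1, ENT replicate 1 or ENT replicate 2, the class I genes called higher were 3, 4 and 3.

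Of 40 genes of epithelial defence 7 rose and 2 fell (median 0.17), a share higher of 17.5%, near that of all genes. Of the 7, 5 rose at least 2-fold. Duoxa2, needed to mature the hydrogen peroxide generator of the apical membrane, read 5.06 and 5.48 in Ent-Pro and 10.33 and 9.31 in ENT, 23.5-fold higher (adjusted p = 5.6e-05). Reg1, a secreted lectin, read 11.29 and 8.03 against 13.98 and 13.89 (19.4-fold, adjusted p = 0.0065), with its Ent-Pro arrays far apart. Muc3, a mucin of the glycocalyx, rose 4.79-fold and the galectin gene Lgals3 3.62-fold, but Cfb, complement factor B, only 1.68-fold. Pigr, which carries antibody into the lumen, was not called, at 14.09 and 14.15 against 14.40 and 14.40, but passed after centring (adjusted p = 0.038). Pglyrp1, a peptidoglycan-binding protein, fell 2.34-fold.

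Of 52 genes of chemokines, cytokines and their receptors 16 rose and 2 fell (median 0.27). Tnfrsf21, a death receptor, read 5.93 and 6.43 in Ent-Pro and 10.22 and 10.03 in ENT, 15.4-fold higher (adjusted p = 0.00012). Il15, which sustains intraepithelial lymphocytes, read 7.09 and 6.74 against 8.79 and 9.16 (4.18-fold, adjusted p = 0.00032). Tnfsf13b, a B cell survival factor, rose 4.27-fold, Cxcl16, a chemokine for T cells, 3.79-fold and the membrane-bound chemokine gene Cx3cl1 3.78-fold. The cytokine gene Mif fell 3.19-fold. Ccl25, the chemokine that draws T cells to the small intestine, was not called, at 12.41 and 12.15 against 12.68 and 12.79 (adjusted p = 0.11), and passed without either DBZ Sec-Pro array (adjusted p = 0.037). Of 39 genes of innate sensing 11 rose and 4 fell (median 0.14), led by the cytokine gene Il18 (2.60-fold) and Relb, an NF-kB subunit (2.46-fold). Of the chemokine and cytokine genes 10, 9, 9 and 10 were called higher without Ent-Pro replicates 1 and 2 and ENT replicates 1 and 2 in turn, and of the sensing genes 6 without Ent-Pro replicate 1.

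**Figure D3:**
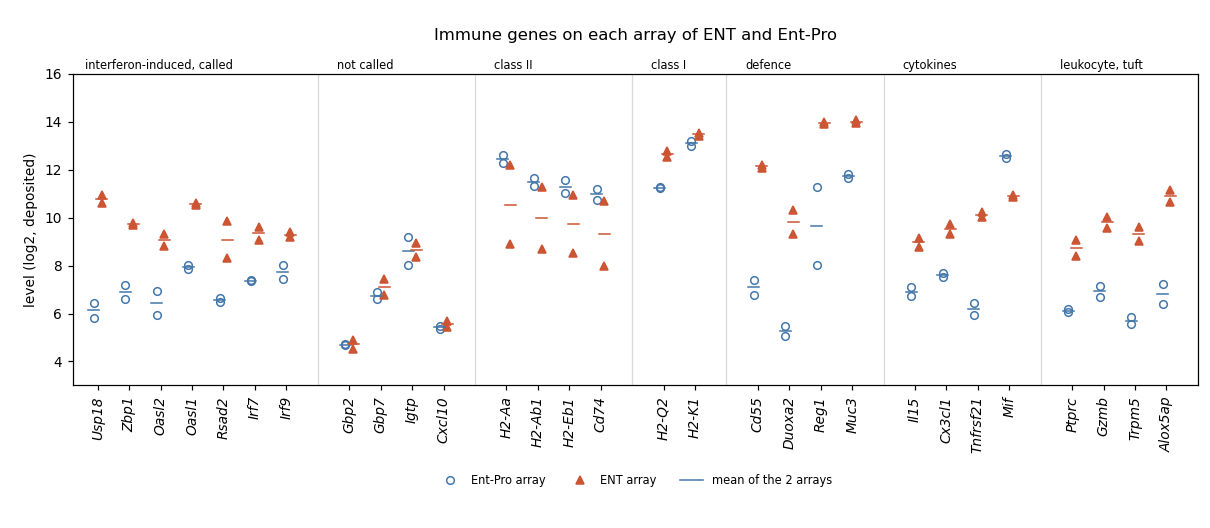
Deposited log2 level of immune genes on each Ent-Pro array (open circles) and ENT array (triangles), with a short line at each group's mean. The ENT arrays of the class II genes lie apart (H2-Aa at 12.20 and 8.89). The leukocyte and tuft cell markers shown stand higher in ENT, though of 37 leukocyte markers measured 11 were called higher, 24 were not called and 2 were lower.

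Markers of other cells moved with these immune genes. Of 37 leukocyte markers 11 rose, 24 were not called and 2 fell, and their mean level was 6.40 and 6.26 in Ent-Pro and 7.20 and 7.22 in ENT. Cd14, 1 of the 2 that fell, read 8.57 and 9.14 in Ent-Pro and 7.89 and 7.23 in ENT (adjusted p = 0.0053, limma). Ptprc, the common leukocyte antigen, read 6.18 and 6.06 against 8.39 and 9.05 (6.06-fold, adjusted p = 0.0061), and Gzmb, a granzyme of cytotoxic lymphocytes, 6.70 and 7.16 against 9.59 and 10.02 (7.30-fold, adjusted p = 0.0043). Both were higher on both ENT arrays, while Cd8b1 was near background in both groups and Jchain, of plasma cells, was lower in ENT (8.09 and 7.60 against 7.30 and 5.86, adjusted p = 0.03), a call lost without either ISC array, either Ent-Pro array or ENT replicate 2. The leukocyte markers called higher were 19 without either Rbpj Sec-Pro array and 6, 3, 5 and 4 without Ent-Pro replicates 1 and 2 and ENT replicates 1 and 2. Of 9 tuft cell markers 8 rose and 0 fell, with means of 5.85 and 5.53 in Ent-Pro and 8.0 and 7.69 in ENT. Trpm5, their taste-type channel, read 5.85 and 5.55 against 9.62 and 9.04 (12.4-fold, adjusted p = 0.00028), and Alox5ap, of leukotriene synthesis, rose 16.7-fold. Without Ent-Pro replicate 2 the tuft count was 4 and without ENT replicate 1 it was 5. The part of leukocytes and tuft cells in the immune and other results was not tested.

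Structural genes rose more often than they fell, in every one of 7 lists. Of 34 tight junction genes 14 rose and 3 fell (median 0.26). Cldn4, a sealing claudin, read 8.32 and 8.96 in Ent-Pro and 11.98 and 11.39 in ENT, 8.28-fold higher (adjusted p = 0.00074), and Cldn23 rose 3.52-fold. Cldn2, which forms a cation and water pore, fell: 10.79 and 10.89 against 9.26 and 9.11 (3.15-fold, adjusted p = 0.0082). Cldn7, Ocln and Tjp1, core parts of the junction, were not called, at 1.10-, 1.05- and 1.12-fold. Without Ent-Pro replicate 1, 8 genes of this list were called higher.

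Of 44 genes of integrins, basement membrane and matrix enzymes 13 rose and 2 fell, with a median of 0.02, that of all genes. Beside Fn1, Lama3, a chain of the laminin that anchors epithelium, read 6.44 and 6.39 in Ent-Pro and 8.89 and 9.01 in ENT, 5.78-fold higher (adjusted p = 9.8e-05). Dst, a linker of filaments to hemidesmosomes, rose 3.37-fold and Itgb6, an integrin chain that binds fibronectin, 3.27-fold. Itga6, a laminin-binding integrin chain, read 11.89 and 12.05 against 11.28 and 11.33 (1.58-fold lower, adjusted p = 0.0023). Leaving out Ent-Pro replicate 2 left 7 genes called higher.

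Of 45 genes of adherens junctions, desmosomes and adhesion 12 rose and 6 fell (median 0.11). Cdhr5, a cadherin that links microvilli at their tips, read 10.68 and 10.25 in Ent-Pro and 12.49 and 12.50 in ENT, 4.08-fold higher (adjusted p = 6.1e-05). The tetraspanin gene Cd82 rose 3.08-fold, whereas the tetraspanin genes Cd9 and Tspan1 fell 2.68- and 2.51-fold. Efna1, a ligand of Eph receptors, rose 3.04-fold (8.0 and 7.86 against 9.66 and 9.40). Cdh1, E-cadherin, read between 12.76 and 13.00 on the 4 arrays and was not called. Without Ent-Pro replicate 1, Ent-Pro replicate 2 or ENT replicate 1, 7 were called higher, and without ENT replicate 2, 3 were called lower.

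Of 24 keratins and other intermediate filament genes 7 rose and 3 fell (median 0.20). Krt23 read 6.91 and 6.49 in Ent-Pro and 8.64 and 8.53 in ENT, 3.69-fold higher (adjusted p = 0.00053), and Krt18 rose 1.56-fold. Krt7 read 10.39 and 10.32 against 9.42 and 9.22, 2.06-fold lower (adjusted p = 0.0003), and Lmnb1, a lamin of dividing nuclei, fell 3.45-fold. Krt8, the main partner of Krt18, was not called (1.24-fold higher, adjusted p = 0.06), and passed the threshold after centring (adjusted p = 0.019) or cyclic loess (0.031).

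The actin list had the largest number of rises among structural lists, 30 of 71, with 6 lower and a median of 0.46. Gsn, gelsolin, which severs actin filaments, read 8.75 and 8.65 in Ent-Pro and 11.38 and 11.04 in ENT, 5.71-fold higher (adjusted p = 0.00028). Espn, espin, which bundles the core of microvilli, rose 4.04-fold, Scin, a relative of gelsolin, 3.95-fold and Capg, which caps filaments, 4.87-fold. Cnn3, a calponin that binds actin, fell: 12.29 and 12.07 against 10.50 and 9.83 (4.03-fold, adjusted p = 0.0019), as did the crosslinker gene Actn1 (2.80-fold) and Cotl1, a coactosin-like protein (2.78-fold). Actg1, an actin of the epithelium, read between 13.95 and 14.13 on all 4 arrays and was not called.

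Of 57 genes of microtubules, trafficking and recycling 20 rose and 5 fell (median 0.19). Tuba1a read 7.79 and 6.99 in Ent-Pro and 11.33 and 10.77 in ENT, 12.7-fold higher (adjusted p = 0.00016), and Tubb2a rose 2.53-fold. Tubb2b read 9.54 and 9.71 against 7.88 and 7.35, 4.02-fold lower (adjusted p = 0.00042), Tubb5 fell 3.16-fold and Stmn1, which destabilises microtubules in dividing cells, 3.79-fold. Tuba4a and Tubb4b were not called, at 1.01- and 1.13-fold. Vamp8, a fusion protein of apical vesicles, rose 2.34-fold. Without Ent-Pro replicate 2 or ENT replicate 2, 13 genes were called higher, and without ENT replicate 2, 9 were called lower.

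**Figure D4:**
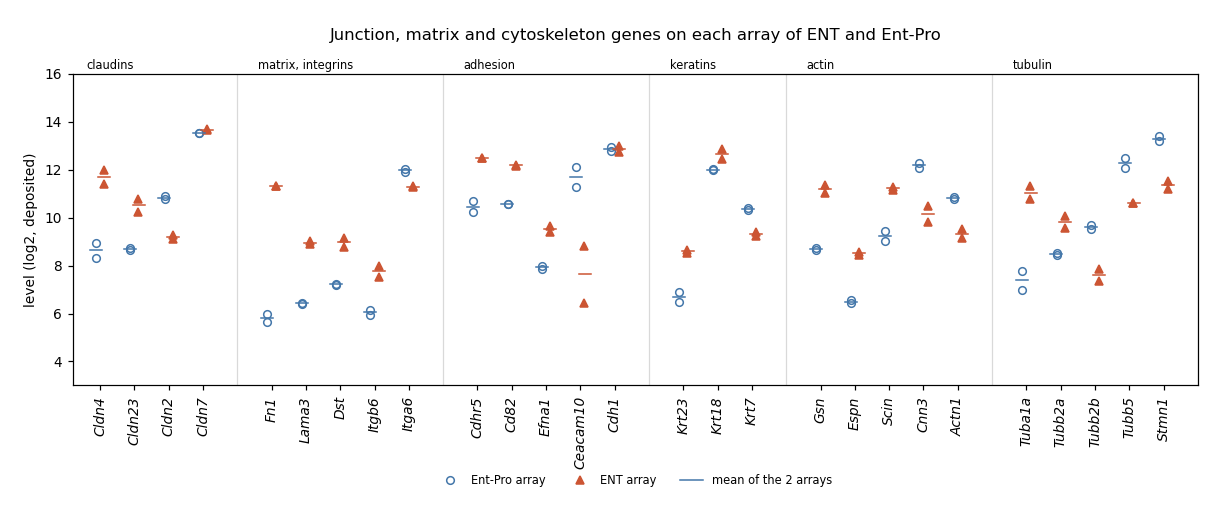
Deposited log2 level of junction, matrix, adhesion, keratin, actin and tubulin genes on each Ent-Pro array (open circles) and ENT array (triangles), with a short line at each group's mean. Members of one family stand on opposite sides, such as Cldn4 and Cldn2 or Tuba1a and Tubb2b, while Cldn7 and Cdh1 stay level.

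Of 43 genes of apoptosis and shedding 20 rose and 4 fell (median 0.47). Cidec, named for a cell death domain and known for fusing lipid droplets, read 6.73 and 6.73 in Ent-Pro and 10.09 and 9.81 in ENT, 9.31-fold higher (adjusted p = 5.8e-05), and its relative Cideb rose 3.77-fold. The p53 targets Pmaip1 and Cdkn1a rose 4.71- and 4.49-fold, and the death receptor gene Fas 4.17-fold. Birc5, survivin, which also serves cell division, fell 4.03-fold (11.38 and 11.23 against 9.35 and 9.24). Casp8, the caspase below death receptors, was not called (1.52-fold higher, adjusted p = 0.082), and passed the threshold without either Rbpj Sec-Pro array (adjusted p = 0.0052) or after centring (0.046).

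The machinery of growth fell nearly as a whole. All 55 measured genes of ribosome biogenesis and RNA polymerase I fell (median -1.68), as did 40 of 43 cytoplasmic ribosomal protein genes (median -0.74) and 28 of 34 translation factor and tRNA synthetase genes (median -0.90), with 0 higher in each (limma). Ncl, nucleolin, read 13.19 and 13.18 in Ent-Pro and 10.24 and 10.84 in ENT, 6.24-fold lower (adjusted p = 4.6e-05). Nop58 and Nop56, of the complex that methylates ribosomal RNA, fell 6.50- and 5.33-fold. Myc, a factor that drives these genes in growing cells, read 10.50 and 10.65 against 8.75 and 8.41, 3.98-fold lower (adjusted p = 5.4e-05). Ribosomal protein genes fell by less: Rps18 read 14.45 and 14.42 against 13.42 and 13.31 (2.09-fold, adjusted p = 0.0002), and Fau, Rpl27a and Rps27 were not called. The 43 ribosomal protein genes measured, of 78 listed, averaged 13.20 and 13.24 in Ent-Pro. Ribosome biogenesis genes averaged 9.82 and 9.84 there, and the highest value on any array was 15.18. The part of this difference in level in the smaller fall was not tested. Eif3a, of translation initiation, fell 2.97-fold, while the elongation factor genes Eef1a1 and Eef2 were not called, at 1.20- and 1.07-fold lower.

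CACGTG, the E-box that Myc and related factors bind, lay in 11 of 46 ribosome biogenesis genes with a window (23.9%). This compared with 10.8% of all genes tested, 13% of those that fell and 11% of those that rose. A gene was counted if any of its windows held the motif. The motif lay in 6 of 25 lipid uptake and chylomicron genes with a window (24%), a list where no gene fell. These were 3 of 19 that rose (15.8%) and 3 of 6 not called (50%). Of ribosomal protein genes 10.5% held the motif. It is shown for Utp18, a factor of small subunit assembly that read 10.07 and 10.21 in Ent-Pro and 8.65 and 8.56 in ENT (2.91-fold lower, adjusted p = 6.3e-05), as its 250 bases before the start site with the E-box in capitals.
Utp18, chr11:93885767-93886016, minus strand: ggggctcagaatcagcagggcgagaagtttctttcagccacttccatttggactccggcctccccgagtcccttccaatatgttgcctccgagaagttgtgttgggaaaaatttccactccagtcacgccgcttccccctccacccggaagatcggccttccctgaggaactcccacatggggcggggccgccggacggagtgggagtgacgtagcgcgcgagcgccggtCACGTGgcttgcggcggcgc
The letters TTTCCCGC, a core of the E2F site, occurred in 3.98% of genes that fell, 1.43% of those that rose and 2.02% of all. CAAAGTCCA, a core of the HNF4 site, occurred in 0.486%, 1.11% and 0.708% of them in that order, and in 6 of 209 genes at least 4-fold higher (2.87%). The TATA box TATAAA occurred in 7.97% of genes that fell, 11.9% of those that rose and 11.9% of all, and in 39 of those 209 (18.7%). GTTAAT, a partial HNF1 site, occurred in 5.10%, 5.99% and 6.27%. Each motif was searched on both strands on its own, overlaps between motifs were not removed, and these shares carry no test.

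Folding genes of the endoplasmic reticulum divided, with 10 of 34 higher, 12 lower and a median of -0.08. Ero1b, an oxidase that drives disulfide formation, read 7.68 and 7.70 in Ent-Pro and 9.58 and 9.37 in ENT, 3.45-fold higher (adjusted p = 0.00075). Sec24d, of the coat that buds vesicles from the reticulum, rose 3.23-fold, and the stress-induced genes Ddit3 and Trib3 2.61- and 2.58-fold. Pdia6, a disulfide isomerase, read 11.18 and 11.18 against 9.79 and 9.77, 2.64-fold lower (adjusted p = 0.00014), though not called by the mean of its probe sets (0.11). The isomerase gene Pdia4 fell 2.29-fold and the chaperone gene Hsp90b1 2.11-fold. Without Ent-Pro replicate 2, 6 genes were called lower, and without ENT replicate 2, 7.

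**Figure D5:**
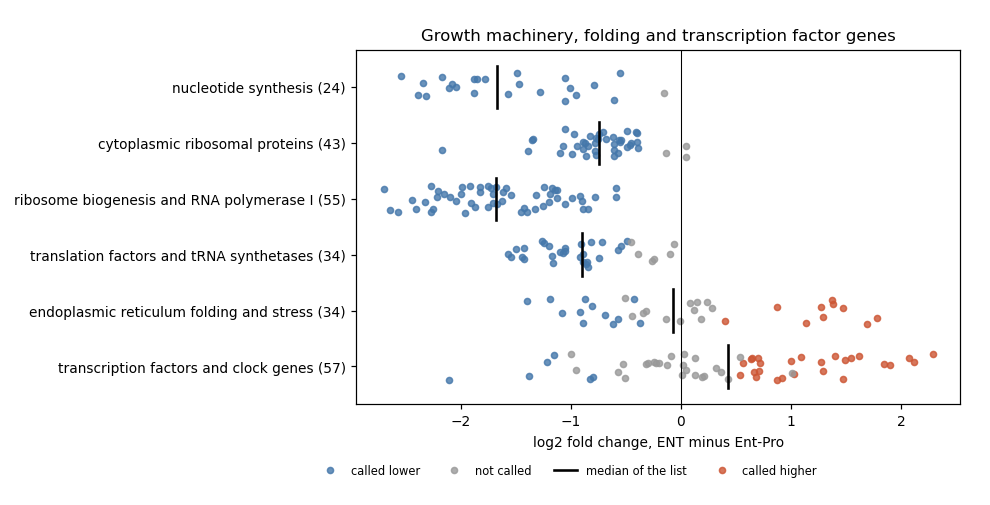
Log2 fold change, ENT minus Ent-Pro, of each measured member of 6 gene lists (number in brackets), coloured by call, with a black line at the median of the list and small vertical offsets for legibility. All 55 ribosome biogenesis genes lie below 0, while folding genes and transcription factors lie on both sides.

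Of 57 transcription factors and clock genes 26 rose and 6 fell (median 0.43). Klf4, a factor of cells that have left the cycle, read 10.14 and 10.27 in Ent-Pro and 12.49 and 12.50 in ENT, 4.90-fold higher (adjusted p = 2.4e-05). Prdm1, a transcriptional repressor, rose 4.33-fold, Ppargc1a, a coactivator of mitochondrial genes, 4.21-fold, Hnf4g 3.72-fold and Creb3l3, a factor of lipid metabolism, 3.61-fold. Hnf4a, the relative of Hnf4g, read between 12.99 and 13.15 on the 4 arrays and was not called. The 3 Foxa genes, forkhead factors of gut epithelium, were lower: Foxa3 read 8.85 and 8.59 against 6.78 and 6.43 (4.33-fold lower, adjusted p = 0.00026), Foxa2 fell 2.61-fold and Foxa1 2.22-fold. Without Ent-Pro replicate 1, 3 genes of this list were called lower. Fos and Jun, genes that answer stimulation within minutes, read 10.29 and 11.08 against 12.65 and 12.42 (3.61-fold higher, adjusted p = 0.002) and 9.09 and 8.77 against 10.64 and 10.34 (2.95-fold, adjusted p = 0.0033). The part of such a response in the other results was not tested.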

How the data were processed

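Levels are the log2 values that the authors deposited, 22690 probe sets on each of 10 Affymetrix mouse arrays, between 2.90 and 15.18. RMA and MAS5 appear in the submitters' processing notes, without their roles or versions. Array medians lay between 6.83 and 6.98, so values were used without further scaling. A 1-colour array gives no read depth, and the number of arrays limits the precision.

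Symbols came from the platform annotation: 20393 had 1 symbol, 691 several and 1606 none, and the 64 control probe sets were left out. Each gene was represented by its brightest probe set on average (4956 genes had more than 1), with no filter on dim genes. The 12393 genes entered 1 linear model of 5 group means (limma 3.58.1, R 4.3.3, lmFit and eBayes; residual degrees of freedom 5, prior 3.75) and were called at a Benjamini-Hochberg adjusted p of 0.05. Errors are the model's SE. The fit was tested on simulated data.

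Near background means at most 1 (log2) above the absent control TrpnX (3.62 to 3.82) on both arrays of a group; a fold against it is a bound, with the gene set to that control plus 1. The comparison, the 40 gene lists (1373 of 1653 genes measured) and the promoter motifs were chosen with earlier results of these data known, and no list was tested as a set. Named were the 10 largest changes per direction, up to 6 called members of a list per direction, up to 3 uncalled ones of highest level, up to 4 of marker lists, and Atoh1. A further set was named after its values were seen: the interferon genes not called apart from Irf1, Ifit3, Irf7, Irf9, Stat2, class II genes beyond the rule, Cx3cl1, Odc1, Myc, Utp18, Cpt1a, Heph, Slc11a2, Slc2a2, Cdh1, Tjp1, Ptprc, Jchain, Cd14, Fos, Jun, Gt(ROSA)26Sor, Xist and the Y-linked genes. Irf1 was named by the rule. Promoter windows of 300 bases (RefSeq, GRCm38.p6) were matched by Entrez identifier for 9882 genes.

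Alternatives were the 4 arrays alone, a replicate block, centring, cyclic loess, the mean of a gene's probe sets, genes above the median level, a test against a 2-fold change and leaving out each array. A replicate block within the 4 arrays was added after the data had been seen.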

Additional observations from a re-analysis of the deposited data

How the results depend on the processing

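The number of genes called was 4792, and within 1.5 times of that with the 4 arrays alone (5118), centring (5102), cyclic loess (4835), the mean of probe sets (4703) and genes above the median level (3890 of 6196). Tested against a 2-fold change, 608 genes passed, 277 higher and 331 lower, as that test asks for more than a difference from 0. Leaving out 1 array gave 3319 to 5220 calls, with 1515 to 2525 higher and 1804 to 2695 lower; with 1 array left in a group, that array is assumed to vary like the others. With the replicate number as a replicate block 4608 genes were called, and 5008 within the 4 arrays. The labels do not say whether replicate numbers pair arrays. Deviations of same-numbered ENT and Ent-Pro arrays did not correlate (r = -0.0182 across genes). With only 2 arrays a group and genes that are not independent, this cannot tell whether same-numbered arrays are paired. With the mean of the gene's probe sets Ctse was higher in ENT by 1.72 (adjusted p = 0.0037) where its brightest probe set gave -0.97 (0.039), and Klf5 lower at -0.54 (0.032) against 0.02 (0.94). Ifit2, not called, gave 0.77 (0.014) without ENT replicate 1 and -0.79 (0.013) without ENT replicate 2. The cause was not tested. With 2 arrays a group, small shifts such as those of the respiratory chain are at the limit of what can be called.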
